A study of Mus musculus with 6 samples.

Results

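The genes described are transcriptional regulators known for holding back or opposing myelination in Schwann cells (SCs), a list of 10 symbols chosen by function. A row with the symbol was found for 8 of the 10 (*Egr1*, *Egr3*, *Hes1*, *Hey1*, *Hey2*, *Pax3*, *Id2* and *Id4*) among the 59485 genes of the table, 23506 of which carry a symbol, and *Jun* and *Sox2* were not analysed here. All 8 passed the filter on low values. The values come from RNA-seq of whole sciatic nerve at P4, with 3 control-labelled and 3 mutant-labelled libraries, each from a different animal. Mutants are labelled Ht-PA-Cre; Adar1fl/fl;R26R: both floxed alleles of *Adar1* (gene symbol *Adar*), which encodes an adenosine-to-inosine RNA editing enzyme, are recombined wherever the Cre driven by the human tissue plasminogen activator promoter has been active, that is in neural crest (NC) derivatives such as SCs and melanocytes, and R26R supplies a YFP tracer. Controls are labelled wild-type, which in this breeding scheme means Cre-negative animals that carry R26R and are heterozygous or homozygous for the floxed allele, and the labels do not say which. Fibroblasts, perineurial cells, vessels and blood cells of the nerve do not descend from the cells in which this Cre is active, or do so only in part, so most of them keep the gene. A fall or rise in such bulk tissue can reflect fewer or more cells of a type or less or more RNA per cell, and these cannot be told apart.

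SCs pass through an immature stage before they wrap an axon, and a set of transcription factors active at that stage restrains the myelin program that EGR2 (Krox20) and SOX10 drive. Several of them return when an adult nerve is injured. Signal-induced factors of this kind include EGR1, a zinc-finger protein made within minutes of growth factor or stress signals. HES1, HEY1 and HEY2 are repressors of the basic helix-loop-helix (bHLH) type that the Notch receptor switches on through its DNA-binding partner RBPJ, and ID2 and ID4 are HLH proteins without a DNA-binding region that capture the E proteins bHLH activators need, with BMP-SMAD signaling among their inducers.

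Sequences upstream of the members are shown first, since HEY and ID genes are textbook targets of RBPJ and of BMP-SMAD signaling and the short words those factors bind can be read in them. RefSeq promoters, from 250 bases before to 50 after the transcription start, were found for 3 of the 8 members (*Hey2*, *Id2* and *Id4*) on GRCm38.p6, and no promoter is shown for *Hes1*, *Hey1*, *Egr1*, *Egr3* and *Pax3*. Each is printed 5′ to 3′ on the gene's strand. In *Hey2*, at chr10:30842734-30843033 on the minus strand, capitals mark the RBPJ core TGGGAA on either strand. In *Id2*, at chr12:25096043-25096342 on the minus strand, and in *Id4*, at chr13:48260866-48261165 on the plus strand, capitals mark GGCGCC, the SMAD word of BMP target genes.
Hey2: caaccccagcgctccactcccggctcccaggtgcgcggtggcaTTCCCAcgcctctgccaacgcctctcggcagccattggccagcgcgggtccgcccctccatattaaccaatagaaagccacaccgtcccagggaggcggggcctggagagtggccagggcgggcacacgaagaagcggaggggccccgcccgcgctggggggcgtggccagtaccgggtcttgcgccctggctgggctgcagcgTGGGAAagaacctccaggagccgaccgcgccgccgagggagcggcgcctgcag
Id2: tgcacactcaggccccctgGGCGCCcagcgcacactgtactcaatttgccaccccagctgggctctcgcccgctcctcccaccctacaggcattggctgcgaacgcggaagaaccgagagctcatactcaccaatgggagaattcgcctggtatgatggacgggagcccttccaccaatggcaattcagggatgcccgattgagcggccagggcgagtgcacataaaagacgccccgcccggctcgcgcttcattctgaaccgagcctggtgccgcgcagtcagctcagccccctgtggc
Id4: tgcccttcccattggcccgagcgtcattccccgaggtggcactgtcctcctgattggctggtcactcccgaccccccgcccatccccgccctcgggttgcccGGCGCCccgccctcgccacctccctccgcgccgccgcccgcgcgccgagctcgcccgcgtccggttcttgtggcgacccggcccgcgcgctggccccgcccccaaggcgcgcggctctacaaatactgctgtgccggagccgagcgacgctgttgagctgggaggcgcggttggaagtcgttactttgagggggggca

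The *Hey2* window held TGGGAA at 2 places, with first bases at -207 and -3 from the start site. Among the 32851 RefSeq promoters of this length, 25.6% held it at least once and 3.79% at 2 or more places. *Id4* held 1 copy, at -245, and the letters were not in the *Id2* window. GGCGCC was found once in each of the 3 windows, at -231 in *Id2*, at -148 in *Id4* and at 40 in *Hey2*, against 11.9% of all promoters. The E-box CANNTG, which bHLH activators bind, stood at -223 in *Hey2* and at -196 in *Id2* but not in *Id4*, and 72.3% of all promoters hold it. The N-box CACNAG, a word for HES repressors, stood at 17 in *Id2* and at -82 in *Id4*, and 42.5% of all promoters hold it. None of these 4 words shares bases with another in the same window, both strands were searched, and a match is only a description of the letters. The *Id4* start site used by RefSeq lies upstream of the gene start given in the table.

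Values are read counts on the constitutive regions of a gene, divided by a size factor per library, and are called normalized read counts. The libraries hold between 50938349 and 78250094 reads on genes, and 1 read is worth 0.727 to 1.27 units. log2(value + 1) was compared between the groups with limma's moderated test over 25802 genes, and every difference is mutant minus control on that scale, on which low-count genes appear to change less than they do. To pass the threshold, taken from the study's methods, a gene needed at least a 2-fold difference together with an unadjusted p at or under 0.05. Adjustment by the Benjamini-Hochberg method covered the whole set of tested genes. Coordinates are those of the table, on mm10. The targeted gene *Adar* had 1602, 2066 and 1133 in the controls against 11768, 9311 and 9773 in the mutants, a log2 fold change of 2.72, which goes against the deletion that the label names. The table has 1 value per gene, so the deleted segment cannot be told from the rest, and each direction below rests on the labels. The 14 myelin genes, measured in the same libraries, were all lower in the mutant-labelled ones, with sums of 4020083 to 4924364 in the controls and 118042 to 628257 in the mutants. The labels do not name litters, and p-values cover only the spread between these animals. Exact two-sided permutation tests of 3 against 3 libraries cannot go under p = 0.1.

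Of the 8 members, 4 passed the threshold, all of them higher in the mutant-labelled libraries: *Egr1*, *Hes1*, *Pax3* and *Hey2*. Among all tested genes, 24.2% passed, 13.9% of those tested as higher and 10.4% as lower. *Id2* and *Id4* were lower with an adjusted p under 0.05 but by less than 2-fold, so that 5 of 8 members had such an adjusted p, 3 of them higher (*Egr1*, *Hes1* and *Pax3*) and 2 lower, beside 35% of all tested genes. *Hey1* and *Egr3* did not pass either test. The groups did not overlap in 5 of 8 members, beside 49.2% of all tested genes. The median log2 fold change was 1.17 over the members and 0.03 over all tested genes, and the members' own values ran from -0.73 to 3.65.

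**Figure D1:**
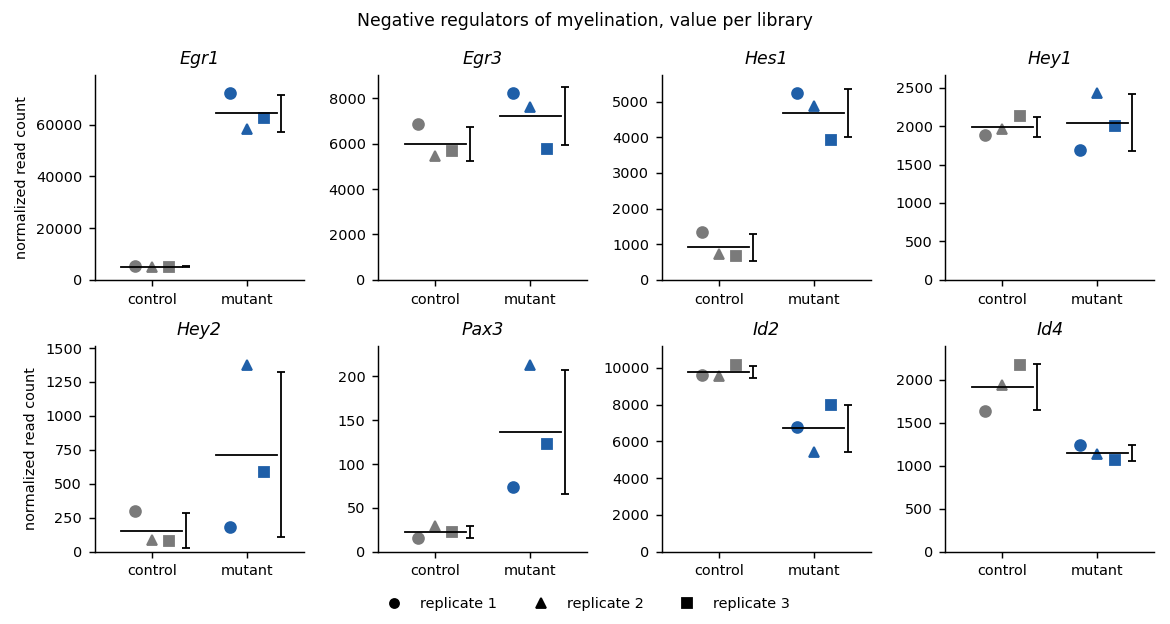
Normalized read count (linear axes from 0) of each of the 8 members in the 3 control-labelled (gray) and 3 mutant-labelled (blue) libraries. Symbols mark the replicate number, horizontal lines the group mean and bars 1 SD on each side; the groups are separate in Egr1, Hes1, Pax3, Id2 and Id4 and overlap in Egr3, Hey1 and Hey2.

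*Egr1* (GSMG0018220, chromosome 18, 34859823 to 34864981, plus strand) had the largest change of the members. Normalized read counts of 5398, 4949 and 5005 belonged to control replicates 1 to 3, and those of 72139, 58212 and 62602 to mutant replicates 1 to 3. Every mutant-labelled value lay far above every control-labelled one, and the libraries of a group lay close together. The mean rose from 5118 ± 244 to 64318 ± 7120.2 (SD, n = 3 each), 12.6 times the control mean, giving a log2 fold change of 3.65 (standard error 0.10, 95% interval 3.42 to 3.88, limma adjusted p = 8.4e-07). Ordered by p-value it stood at rank 5 of the 25802 tested genes, and ordered by fold change at rank 864. Leaving out any 1 of the 6 libraries gave 3.56 to 3.72.

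*Egr3* (GSMG0011762, chromosome 14, 70077445 to 70082613, plus strand), a paralog of *Egr1* with a like DNA-binding domain, did not pass the test. It had 6851, 5469 and 5659 in the controls against 8227, 7632 and 5765 in the mutants. Mutant replicates 1 and 2 were the highest, but mutant replicate 3 lay among the controls. The means were 5993 ± 749 and 7208 ± 1284, giving a log2 fold change of 0.26 (standard error 0.15, 95% interval -0.09 to 0.60, limma adjusted p = 0.219). Without mutant replicate 3 it was 0.41, with an adjusted p of 0.0491 in limma, still under 2-fold. A gene on the opposite strand (GSMG0066311) spans *Egr3* with values of 161 to 246, and while the libraries keep strand, whether the counting used it is not given in the sources used here. The *Egr1* change exceeded that of *Egr3* by 3.39 on the log2 scale. The per-library differences did not overlap between groups, which in this design gives the smallest possible exact permutation p of 0.1 (adjusted p = 0.175 over the 7 pairs of genes compared).

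With *Egr2*, *Egr4* and the genes of the NAB corepressors, which bind EGR proteins and temper or redirect them, *Egr1* and *Egr3* made up a list of 6 tested genes, of which 2 were higher (*Egr1* and *Egr4*) and 0 lower, with a median log2 fold change of 0.44. Since 24.2% of all tested genes passed, a count of 2 in so short a list is no result about the list. *Egr4* had 0 reads in all 3 controls and values of 77.1, 75.3 and 39.6 in the mutants, at least 19.3-fold higher against a floor of 3 reads per control library. This floor covers counting error alone, as amplified reads that carry no molecular identifier are not independent molecules. *Egr2*, the driver of myelination, went the other way, with 24383, 28903 and 30362 in the controls against 19843, 13079 and 18551 in the mutants, which do not overlap. Its log2 fold change was -0.72 (standard error 0.16, limma adjusted p = 0.00989), short of 2-fold. The changes of *Egr1* and *Egr2* lay 4.36 apart on the log2 scale, again with the smallest exact permutation p of 0.1 (adjusted 0.175). *Nab1* stood at 988 ± 21.9 and 982 ± 119, with a log2 fold change of -0.02, and *Nab2* at 4735 ± 1977 and 6989 ± 1016, with 0.63 (limma adjusted p = 0.0855).

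*Egr1* and *Egr3* also belong to the immediate-early genes, which cells transcribe from ready-made machinery as soon as a signal arrives. Of the 29 tested, 22 were higher past the threshold and 0 lower, with a median log2 fold change of 2.06, beside 13.9% of all tested genes that passed as higher, and *Junb* was not analysed here. Neuron markers were higher in the same libraries, with 4 of 6 past the threshold, sums of 3216 to 3598 in the controls and 7565 to 8403 in the mutants, and *Rbfox3* at 0 in control replicate 1. So were T and NK cell markers, with 4 of 5 tested, sums of 79.8 to 162 and 342 to 447, and *Cd3d*, *Cd8a* and *Ncr1* at 0 in all controls. Skeletal muscle markers were higher too, with 6 of 9 tested, sums of 5643 to 30177 and 37559.6 to 284415, and *Pax7* at 0 in all controls. The part of these cells in the immediate-early result was not tested. The largest changes were those of *Fosl1*, *Csrnp1*, *Arc* and *Egr1*. *Fosl1*, a FOS-family partner of JUN proteins, rose from 20.2 ± 7.94 to 2316 ± 514 (log2 fold change 6.83). *Csrnp1*, a nuclear protein, rose from 106 ± 33.2 to 1991 ± 464 (4.23), and *Arc*, best known in neurons, from 86.8 ± 14.6 to 1251 ± 395 (3.80). *Egr3* was thus among the 7 of 29 that did not pass. Of 14 genes that ERK signaling induces and that feed back on it, 5 were higher and 1 lower (median 0.77), beside 13.9% and 10.4% of all tested genes. They were led by the phosphatase gene *Dusp5* at 2.80 and by *Phlda1* at 2.75, with *Ier3* at 2.03 and *Spred3* at 1.51, while *Dusp4* was lower (-1.10). By limma adjusted p at or under 0.05, 11 of the 14 were higher and 1 lower, beside 35% of all tested genes in either direction.

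**Figure D2:**
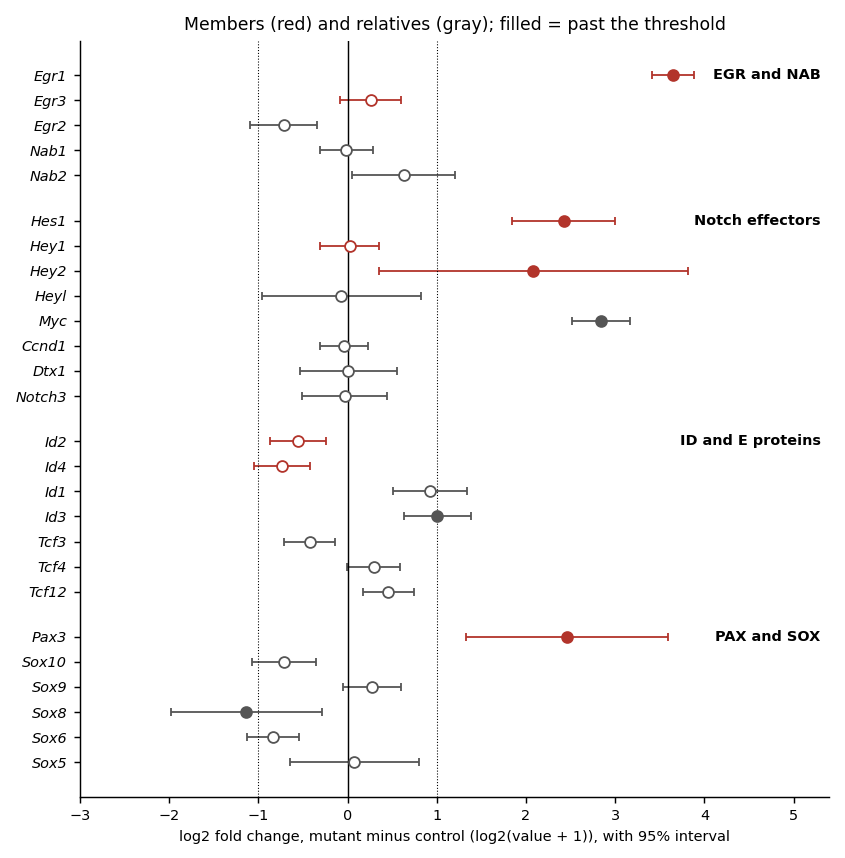
Log2 fold change, mutant minus control on log2(value + 1), with its 95% interval, for the 8 members (red) and relatives named with them (gray), in 4 blocks by family; filled symbols passed the threshold and dotted lines mark a 2-fold difference. Egr1 stands at 3.65 with a narrow interval, Hey2 at 2.08 with a wide one, and Egr3 and Hey1 have intervals that include 0.

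*Hes1* (GSMG0014858, chromosome 16, 30065340 to 30067795, plus strand), the bHLH repressor most widely induced by Notch, was higher in all mutant-labelled libraries. The controls had 1340.3, 719 and 678 and the mutants 5233, 4888 and 3935. Control replicate 1 stood above the other 2 controls, yet the groups stayed well apart. The mean rose from 912 ± 371 to 4685 ± 673, 5.13 times, giving a log2 fold change of 2.42 (standard error 0.25, 95% interval 1.85 to 2.99, limma adjusted p = 0.000199), and 2.24 to 2.73 with each library left out. A gene without a symbol on the opposite strand (GSMG0066598, chromosome 16, 30064383 to 30070983) encloses *Hes1* and also rose, from 48.5 ± 12.8 to 147 ± 28.2 (log2 fold change 1.59, limma adjusted p = 0.00773).

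*Hey1* (GSMG0025148, chromosome 3, 8663360 to 8667040, minus strand), another RBPJ-induced repressor, had 1882, 1962 and 2131 in the controls against 1695, 2429 and 2007 in the mutants. Both the lowest and the highest value were mutant-labelled, so the control values lay inside the mutant range. The means were 1992 ± 127 and 2043 ± 368 and the log2 fold change 0.02 (standard error 0.14, 95% interval -0.30 to 0.35, limma adjusted p = 0.915), so a change of 2-fold in either direction lies outside the interval. The sign of this small value changed with the scaling, to -0.044 with the libraries set to the same 75th percentile, and also without control replicate 1 (-0.017) or mutant replicate 2 (-0.11). *Hes1* and *Hey1* differed in their change by 2.398 on the log2 scale, with per-library differences that did not overlap (exact permutation p = 0.1, the smallest possible, adjusted 0.175).

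*Hey2* (GSMG0003947, chromosome 10, 30832359 to 30842784, minus strand), whose promoter with 2 RBPJ words is printed above, passed the threshold but varied most among the members. The controls had 301, 83.2 and 74.8 and the mutants 180.4, 1376 and 586. Control replicate 1 lay above mutant replicate 1, so the groups overlapped, and mutant replicate 2 was the highest of all. The means were 153 ± 128 and 714 ± 608, a ratio of 4.67, giving a log2 fold change of 2.08 (standard error 0.76, 95% interval 0.36 to 3.81, limma adjusted p = 0.0628), and it passed on the unadjusted p and the fold. The call was lost without control replicate 2 (1.80), control replicate 3 (1.73), mutant replicate 2 (1.39) or mutant replicate 3 (2.01), and with the moderation run without a trend. *Xist* and Y-linked genes place 2 females among the controls and 1 among the mutants, and in a fit with sex as a term, added after the data were seen, the log2 fold change was 2.57 (standard error 0.65, limma adjusted p = 0.0198). With 1 male control and 1 female mutant, no separation within a sex can be read from these values. Libraries of the same sex and group also differed widely, at 301 and 74.8 in the female controls and 180.4 and 586 in the male mutants. The changes of *Hes1* and *Hey2* lay 0.34 apart (exact permutation p = 0.9) and those of *Hey2* and *Hey1* 2.06 apart (exact permutation p = 0.2, adjusted 0.28), in both cases with per-library differences that overlapped between groups. The smallest adjusted p this test gave over the 7 pairs was 0.175, so it could not separate any pair at 0.05.

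HEY2 is also a transcription factor of arteries and vascular smooth muscle. The summed markers of those cells followed the order of *Hey2* across libraries only in part. The 8 pericyte and smooth muscle markers summed to 20553 to 40343 in the controls and 24278 to 64738 in the mutants. They were highest in mutant replicate 2 (64738), then mutant replicate 3 (43221) and control replicate 1 (40343), the order that *Hey2* also showed for its 3 highest libraries. Below those, control replicate 2 (24828) lay above mutant replicate 1 (24278), which *Hey2* did not show. None of these 8 markers was at 0, and 1 of 8 passed the threshold, *Des* (log2 fold change 2.33), which skeletal muscle shares. The smooth muscle actin gene *Acta2* had 16145, 4690.5 and 4235 in the controls against 6109, 41159 and 21826 in the mutants. The 6 arterial endothelial markers summed to 4609 to 8317 in the controls and 6818 to 13479.9 in the mutants, and none was at 0. Their sum was highest in mutant replicate 2, but control replicate 1 (8317) lay above mutant replicate 3 (7900), unlike *Hey2*. The arterial connexin gene *Gja5* was the 1 of 6 that passed. It had 516, 96.4 and 78.6 in the controls against 273, 1649 and 804 in the mutants, for this single gene the same order of libraries as *Hey2*. None of the 8 general endothelial markers passed the threshold, with sums of 18614 to 27456 and 27573 to 36741 and a median log2 fold change of 0.50. By limma adjusted p at or under 0.05, 3 of these 8 were higher, against 0 of 6 arterial and 1 of 8 pericyte and smooth muscle markers. Of all tested genes, 24.2% passed the threshold and 35% had such an adjusted p. The genes whose log2 values followed *Hey2* most closely were *Flt4*, a receptor of lymphatic endothelium (Pearson r = 0.995), and *Lmod1*, a smooth muscle gene (r = 0.992). The r is taken over 6 libraries and 13041 candidate genes, 68 of which reached 0.95, and all share the group difference. The part of these cells in the *Hey2* result was not tested.

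**Figure D3:**
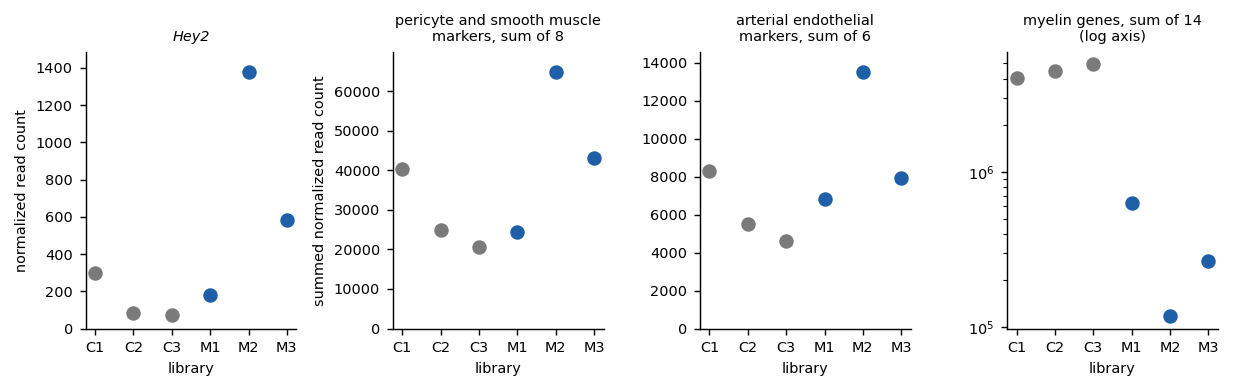
Hey2 (normalized read count) in control-labelled (C1 to C3, gray) and mutant-labelled (M1 to M3, blue) libraries, beside the summed normalized read count of 8 pericyte and smooth muscle markers, 6 arterial endothelial markers and, on a log axis, 14 myelin genes. M2 is highest in the first 3 panels and lowest in the myelin panel (118042), and C1 is above M1 in the first 3.

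Of the 8 tested Notch effectors and targets, 3 were higher and 0 lower, with a median log2 fold change of 0.01, beside 13.9% of all tested genes that passed as higher: *Hes1*, *Hey2* and the proto-oncogene *Myc*, which rose from 1127 ± 183.3 to 8036 ± 936 (2.84) and which many other signals induce. *Heyl* (-0.07), *Notch3* (-0.03), *Ccnd1* (-0.04) and *Dtx1* (0.01) did not pass, *Hes5* had too few reads to be tested and *Nrarp* was not analysed here. Of 26 receptors, ligands and modifiers, 3 were higher and 3 lower, with a median of 0.04, a share near the 24.2% of all tested genes that passed, so the count is no result about the list. The ligand gene *Dll1* rose from 119.5 ± 93.4 to 391 ± 163 (1.94, limma adjusted p = 0.0282), and the coactivator gene *Maml2* from 951 ± 74.3 to 2090.2 ± 243 (1.13). *Adam10*, whose protease makes the first cut of activated Notch, fell from 9509 ± 118 to 3479 ± 387 (-1.46), and *Maml3* from 6850.0 ± 751 to 3055 ± 489.9 (-1.17). Among 14 tested HES and HEY repressors and their corepressors, 5 were higher and 2 lower (median 0.18), beside 13.9% and 10.4% of all tested genes. Besides the members, the bHLH repressor gene *Bhlhe40* rose from 1571 ± 72.1 to 8319.7 ± 848 (2.401, limma adjusted p = 3.54e-06), *Hes7* from 16.1 ± 9.97 to 105 ± 21.5 (2.85), and *Hes2* was at least 3.33-fold higher from 0 reads in the controls.

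*Id2* (GSMG0008749, chromosome 12, 25093801 to 25096095, minus strand) was lower in the mutant-labelled libraries. The controls had 9613, 9567 and 10157 and the mutants 6773, 5399 and 7967. All 3 controls lay above all 3 mutants, and the mutants spread more widely than the controls. The mean went from 9779 ± 328 to 6713 ± 1285, 0.686 of the control mean, giving a log2 fold change of -0.56 (standard error 0.14, 95% interval -0.87 to -0.25, limma adjusted p = 0.0139), less than a 2-fold difference. The adjusted p in limma was 0.0508 without control replicate 3, 0.0546 with the libraries scaled to the same total and 0.0728 with the moderation run without a trend, and the sign held in all of these. A gene on the opposite strand (GSMG0065812) encloses *Id2*, with 333, 503 and 437 in the controls against 355, 176 and 455 in the mutants.

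*Id4* (GSMG0009732, chromosome 13, 48261228 to 48264036, plus strand) had 1639, 1936 and 2171 in the controls against 1242, 1131 and 1063 in the mutants. Here too the groups did not overlap, and the mutants lay closer together than the controls. The mean went from 1915 ± 266 to 1145 ± 90.5, 0.598 of the control mean, giving a log2 fold change of -0.73 (standard error 0.14, 95% interval -1.04 to -0.42, limma adjusted p = 0.00378), less than a 2-fold difference, and the highest adjusted p over all alternative settings and left-out libraries was 0.0258. The changes of *Id2* and *Id4* lay 0.17 apart on the log2 scale, with overlapping per-library differences (exact permutation p = 0.6, adjusted 0.7), in a test that cannot go under 0.1. Summed markers of other cells were lower in the same libraries as *Id2* and *Id4*. Fibroblast markers summed to 1927148 to 2171767 in the controls and 780695 to 1181321 in the mutants. Of these, 0 of 6 were higher, 2 lower (*Col1a1* and *Col1a2*), 4 did not pass and none was at 0, with a median log2 fold change of -0.21. Macrophage markers summed to 10681 to 14039 and 5102 to 7229, with 2 of 7 higher, 3 lower, none at 0 and a median of -0.22. Of all tested genes, 13.9% passed as higher and 10.4% as lower, and such sums weigh the most abundant genes most. SC markers were lower as well, as given with the myelin genes. The part of these cells in the *Id2* and *Id4* results was not tested.

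The other ID genes went the other way. *Id1*, from the same family, had 1062, 1036 and 716 in the controls against 1745, 2029 and 1522 in the mutants, and *Id3* 1820.0, 1585 and 1201 against 2987, 3402 and 2753, both without overlap. Their log2 fold changes were 0.92 (limma adjusted p = 0.00526) and 1.004 (limma adjusted p = 0.00202). *Id3* is the 1 gene of the 7 ID and E protein genes past the threshold, and lies at its 2-fold limit. The count was 0 in both count models (edgeR and DESeq2), with a pseudocount of 10 and at the same 75th percentile, and 2 at the same total. It was 0 without control replicate 3 or mutant replicate 2, and 2 without control replicate 1, control replicate 2 or mutant replicate 3. The E protein genes, whose products ID proteins capture, did not pass the threshold: the log2 fold change was -0.42 for *Tcf3* (limma adjusted p = 0.0302), 0.46 for *Tcf12* (limma adjusted p = 0.023) and 0.29 for *Tcf4* (limma adjusted p = 0.114). Of the 12 tested BMP-SMAD target and feedback genes, a list that holds all 4 ID genes, 3 were higher and 0 lower, with a median of 0.74: *Id3* and the genes of the inhibitory SMADs, *Smad7*, from 343 ± 103 to 1519 ± 132 (2.18), and *Smad6*, from 210.4 ± 86.3 to 677 ± 119 (1.75). *Id2* and *Id4* were thus on the other side of 0 from *Id1*, *Id3*, *Smad6* and *Smad7*. The SMAD word in their promoters is not tied to this direction, as *Hey2* holds it too and had a log2 fold change of 2.08. No promoter was read for *Id1*, *Id3*, *Smad6* or *Smad7*. By limma adjusted p, 8 of the 12 were at or under 0.05, 6 higher and 2 lower, beside 35% of all tested genes. Past the threshold were 24.2% of all tested genes, and 13.9% as higher, so the count of 3 of 12 past it is by itself read as no result about the list. The count was 5 without mutant replicate 3 and 6 with the libraries scaled to the same total.

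*Pax3* (GSMG0001785, chromosome 1, 78101267 to 78197137, minus strand), a paired-box factor of the early NC that represses *Mbp* in SC culture, was the member with the fewest reads. It had 15.5, 29.3 and 22.8 in the controls against 74.2, 213 and 123 in the mutants, which stand for 14 to 31 and 102 to 221 reads. The lowest mutant-labelled value was above the highest control, and mutant replicate 2 was the highest. The mean rose from 22.5 ± 6.88 to 137 ± 70.6, 6.06 times, giving a log2 fold change of 2.46 (standard error 0.49, 95% interval 1.33 to 3.59, limma adjusted p = 0.00572), and 2.08 to 2.83 with each library left out. Both genes that overlap it on its strand had 0 reads in every library. *Sox10*, the factor PAX3 works with in the NC, had 12618, 11719 and 10919.5 in the controls against 9171, 5838 and 6828 in the mutants (log2 fold change -0.71, limma adjusted p = 0.00874), short of 2-fold. The changes of *Pax3* and *Sox10* lay 3.18 apart on the log2 scale, with no overlap of the per-library differences (exact permutation p = 0.1, the smallest possible, adjusted 0.175).

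Of the 17 tested PAX, SOX and other NC factors, 6 were higher and 2 lower, with a median of 1.21, beside 13.9% of all tested genes that passed as higher and 10.4% as lower. *Tfap2b* rose from 4.42 ± 4.75 to 169 ± 40.9 (5.50) and *Tfap2a* from 17.0 ± 9.92 to 314 ± 37.2 (4.31), both AP-2 factors of the early crest, while *Mitf*, the regulator of melanocytes, fell from 452 ± 27.1 to 90.0 ± 33.6 (-2.39). *Pax3* is also used by muscle precursors and melanocyte precursors, and both marker lists differed between groups. Of 9 tested skeletal muscle markers, 6 were higher and 0 lower, with sums of 5643 to 30177 in the controls and 37559.6 to 284415 in the mutants. Among the mutants this sum was lowest in replicate 2, where *Pax3* was highest, a ranking of 3 libraries that is a description only. The list mixes genes of differentiated muscle, such as *Acta1* and *Ckm*, with *Myod1*, *Myog*, *Pax7* and *Myf5*, so its sum does not measure precursors. *Pax7*, the paralog that marks muscle stem cells, was at 0 in all controls and in mutant replicate 1. Melanocyte markers summed to 1012 to 1153 in the controls and 195 to 520.1 in the mutants, with 1 of 5 tested higher and 3 lower, and *Dct* at 0 in mutant replicates 2 and 3. The part of muscle cells in the *Pax3* result was not tested.

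All 14 myelin genes were lower past the threshold, with a median of -3.71, and *Mbp*, which encodes myelin basic protein, fell from 1537157 ± 169073 to 64517 ± 64812 (-5.16). Their summed values were 4020083 to 4924364 in the controls and 628257, 118042 and 265393 in mutant replicates 1 to 3. Within the mutants, *Pax3* and *Hey2* were highest in replicate 2, then 3, then 1, the reverse order of the myelin sum, whereas *Egr1*, *Hes1* and *Egr3* were highest in replicate 1. Replicates of a group have no order, and with 3 libraries these rankings are descriptions only. Of 7 SC markers, 0 were higher and 4 lower, and their sums were 1131501 to 1498913 and 52397 to 207401. Of 16 pro-myelinating regulators, 0 were higher, 3 lower and 13 did not pass (median -0.15), beside 10.4% of all tested genes that passed as lower and 24.2% in either direction, so this count is no result about the list. The lower ones were *Pou3f1* (Oct6) at -2.19, *Srebf2* at -1.29 and *Pou3f2* (Brn2) at -1.19. Of 8 immature SC genes, 2 were higher and 1 lower (median -0.02), beside 13.9% and 10.4% of all tested genes, so this count is no result about the list either. *Gfap*, an intermediate filament gene of non-myelinating SCs, rose from 7.10 ± 7.22 to 61.6 ± 20.3 (3.35), *Gap43*, a growth-associated gene, from 459.9 ± 31.8 to 1029 ± 197 (1.14), and *Cdkn1c*, a cell cycle inhibitor gene, fell from 26569 ± 3415 to 8546 ± 2192 (-1.66).

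**Figure D4:**
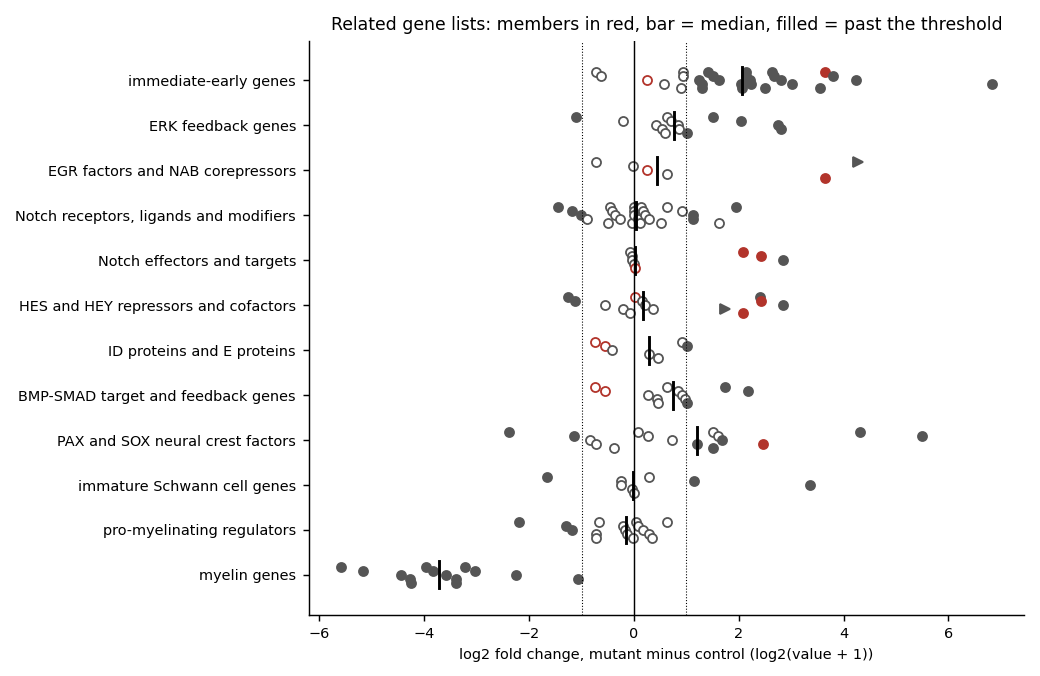
Log2 fold change, mutant minus control on log2(value + 1), of each tested gene in 12 related lists (1 row per list); members are red, filled symbols passed the threshold, black bars are list medians, dotted lines mark a 2-fold difference and right-pointing triangles are lower bounds for genes with 0 reads in all controls (Egr4 and Hes2), with Pax7 left out. The immediate-early genes center at 2.06 and the myelin genes at -3.71, and the ID members lie left of 0.

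For the other members, the genes with the most similar values over the 6 libraries are given as a description, since all 6 share the group difference and many genes reach a high r. *Egr1* was followed by *Apol9a* and *Cry1* (r = 0.999 for each), with 1603 of 13041 genes at 0.95 or above, and *Hes1* by *Polr2h* and *Phf23* (r = 0.999 for each), with 1120. *Id4* was followed by *Abhd17b* (r = 0.999) and *B630019K06Rik* (r = 0.998), with 992 genes at that level, *Id2* by *Lpin1* (r = 0.999) and *Tnfrsf22* (r = 0.996), with 165, and *Pax3* by *Sms* (r = 0.995) and *Gng4* (r = 0.994), with 194. *Hey1* and *Egr3*, which did not separate the groups, had few such genes: 7 for *Hey1*, led by *Hist1h2ag* (r = 0.979) and *Tst* (r = 0.969), and 13 for *Egr3*, led by *Klhl25* (r = 0.977) and *Rad9b* (r = 0.976). *Apol9a* has a near-identical neighbor and *Hist1h2ag* belongs to a multigene family, so their reads can be split by the counting.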

How the data were processed

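The authors mapped oriented poly-A cDNA reads with STAR 2.4.0 on mm10, counted those on constitutive regions of FAST DB genes and divided the counts by a DESeq size factor per library, and this signal per gene is the deposited unit. FastQC, Picard and SAMtools are also named in the submitters' processing notes. Dividing by the value of 1 read gave whole numbers (within 0.05 reads) for 100% of the genes, and the recovered reads, 50938349 to 78250094 per library, were used for edgeR and DESeq2. The members and lists were chosen with earlier results of these data known. Symbols split on a double slash were matched to the lists. log2(value + 1) was fitted with limma (lmFit, eBayes with trend, two-sided) for genes with a mean of at least 10 in at least 1 group. Pairs of genes were compared with an exact permutation test, adjusted over 7 pairs. Every member is named, every gene of a list of at most 7, otherwise the up to 4 largest changes past the threshold, plus Adar, Sox10, Egr2 and Mbp, and the 2 genes most like each member (mean of at least 100). Other genes in the text (markers, and Notch, ERK feedback and overlapping genes beyond these) were named after their values were seen. The script was tested on simulated data. Alternatives were pseudocounts of 0.1 and 10, other filters, other scalings, eBayes without trend, edgeR, DESeq2, a replicate block, each library left out and, added later, sex as a term. Replicate numbers stand for different animals, and same-numbered libraries did not deviate together (r = -0.06, -0.06 and 0.01), so no pairs were used. Software was R 4.3.3 with limma 3.58.1, edgeR 4.0.16 and DESeq2 1.42.0, besides Python 3.11.15, pandas 2.3.3, numpy 2.4.6 and matplotlib 3.10.9.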

Additional observations from a re-analysis of the deposited data

How the results depend on the processing

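Over the 18 alternatives, *Egr1*, *Hes1* and *Pax3* stayed past the threshold and higher, and *Id2* and *Id4* stayed lower. The number of members past the threshold was 3 or 4 over the other settings and 3 to 4 with each library left out, since *Hey2* alone lost its call. The number with an adjusted p at or under 0.05 was 4 to 6, also 4 to 6 with each library left out. The count over all genes ran from 4706 to 6892 over the settings, and from 5743 to 6334 with each library left out. *Hey1* changed sign under 3 alternatives, to -0.044 at the same 75th percentile, -0.017 without control replicate 1 and -0.11 without mutant replicate 2 (-0.11 to 0.15 with each library left out), and the cause was not tested. Scaling to the same total moved the median of all genes to 0.19, and scaling to the same 75th percentile to -0.03. *Hey2* ran from 1.39 to 2.85 with each library left out. With a replicate block, 4 members passed the threshold, 5 had an adjusted p at or under 0.05 and 6149 genes passed in all, and no member's call changed. *Pax3* rests on the fewest reads, 14 to 31 in the controls.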
